A study of Mus musculus with 6 samples.

Results

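Dystrophin, its relative utrophin and the membrane proteins that they hold were followed here at the transcript level in calf muscle with and without overexpression of integrin alpha7. The genes were Dmd (dystrophin), Utrn (utrophin), Dag1 (dystroglycan), Sgca, Sgcb, Sgcd and Sgce (alpha-, beta-, delta- and epsilon-sarcoglycan), Sspn (sarcospan), Sntb1 (beta1-syntrophin) and Dtna (alpha-dystrobrevin). Every probe set annotated with exactly 1 of these 10 symbols was taken, which gave 33 of the 45037 probe sets that were not controls. The probe sets were taken by name only, but the genes themselves were chosen with earlier results of these data known. All arrays carried RNA of gastrocnemius and soleus muscle from non-fasted female mice aged 5 weeks, of a background written as SJ6/C57BL6 in the labels. One group was wild type and the other was integrin alpha7 transgenic, and each had 3 arrays, each of RNA pooled from 6 animals. The sources used here do not name the promoter or the founder line of the transgene, and they do not explain the word intronic in the titles of the wild type arrays.

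The dystrophin complex spans the membrane of the muscle fibre. Dystrophin binds actin on the inside and the tail of beta-dystroglycan, alpha-dystroglycan binds laminin on the outside, and the sarcoglycans with sarcospan form a subcomplex beside them, while syntrophins and dystrobrevin sit on dystrophin's end inside the fibre. Loss of dystrophin, or of alpha-, beta- or delta-sarcoglycan, causes muscular dystrophy. Utrophin can take dystrophin's place at the membrane, and integrin alpha7beta1 is the other main laminin receptor of the fibre. The comparison asked here was whether transcripts of the parallel complex differ where the integrin is overexpressed.

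None of the 10 genes had a probe set that passed the test for a difference between the genotypes. Dmd and Dag1 gave lower means on all their probe sets, and Sgcb and Sspn gave higher means on all of theirs. These signs held in every alternative setting for all 3 probe sets of Sgcb, but 1 probe set of Dmd, 2 of Dag1 and 1 of Sspn changed sign in at least 1 of them. Tested probe sets ran from 0.686-fold for a dim one of Dmd to 1.29-fold for one of Sspn, on the log2(signal + 16) scale. Utrn, Sntb1 and Dtna gave differences of both signs, and the tested probe sets of Sgca, Sgcd and Sgce lay within 0.080 of 0 on the log2 scale. The filter on dim signals was a mean log2(signal + 16) of 5.24, which stands for a signal of about 21.7. Of the 33 probe sets, 30 lay above it and were tested in limma across 27022 probe sets. The test called 0 of these 30 at an adjusted p of 0.05, against 0.122% of all probe sets tested, and the smallest adjusted p among them was 0.384. At an unadjusted p under 0.05 in limma there were 4 of 30, or 13.3%, against 7.85% of all probe sets tested; 2 were higher (3.51% of all) and 2 lower (4.34% of all). Genotypes separated without overlap for 4 of 30, or 13.3%, against 13.4% of all probe sets tested, again 2 higher (5.85% of all) and 2 lower (7.50% of all), so that this share matched the background. The median log2 difference was -0.040 over the 30 probe sets and -0.012 over all tested, and the median size was 0.11 against 0.12.

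**Figure D1:**
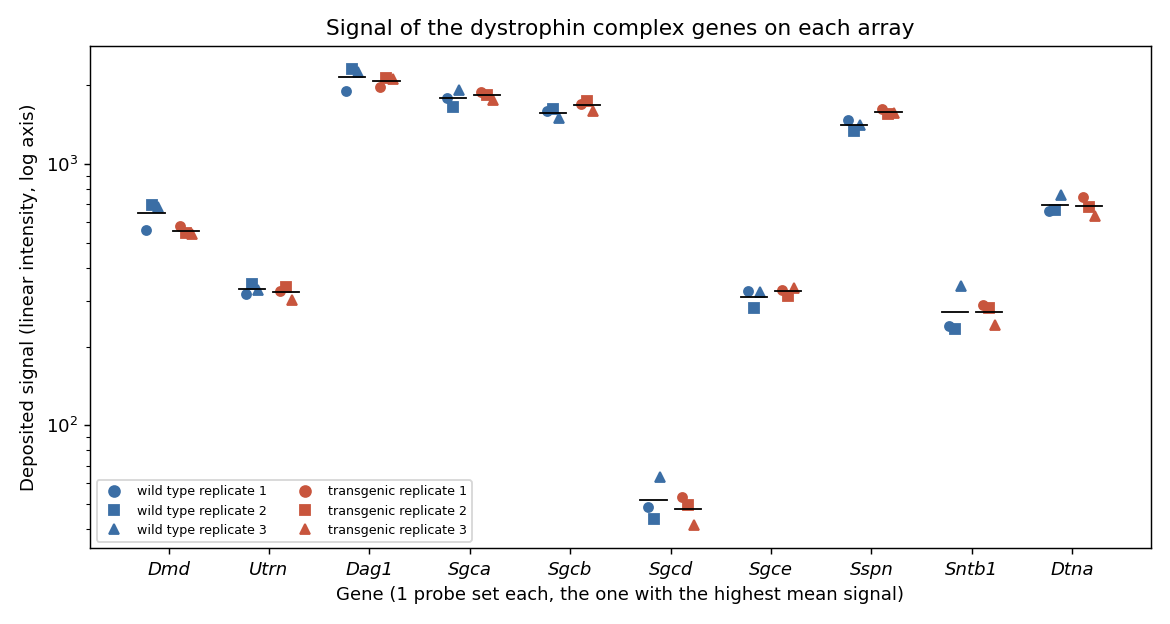
Deposited signal on a log axis for 1 probe set of each of the 10 genes, with 3 wild type arrays in blue, 3 transgenic arrays in red and a line at each group mean. The genotypes overlap for 9 of the 10 genes, and for Sspn the transgenic arrays (1552 to 1623) lie above the wild type arrays (1334 to 1476).

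The labels were checked on the transgene itself. Itga7, the integrin chain that was overexpressed, gave 254, 308 and 313 on the wild type arrays and 2498, 2144 and 2072 on the transgenic ones. Array medians were 34.0 to 38.4. Markers of muscle fibres summed to 185695 to 190599 on the wild type and 170598 to 179659 on the transgenic arrays, with all 10 of 10 measured and none at 0, and 8 of them had negative differences. Signals of this height can be compressed. In such bulk tissue fewer cells of a type and less RNA per cell cannot be told apart. The 7 endothelial markers summed to 1644 to 1827 in wild type and 1448 to 1568 in transgenic muscle, and all 7 differences were negative. The 6 macrophage markers summed to 4860 to 5168 against 4506 to 4816, while the sums for smooth muscle, fibroblasts, Schwann cells and adipocytes overlapped between genotypes. Ratios of 3′ to 5′ control signal were 0.778 to 0.809 for Gapdh and, for beta-actin, 0.805, 0.807 and 0.909 in wild type and 0.873, 0.919 and 0.959 in transgenic muscle. The part of these values in the results was not tested.

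Dystrophin is the actin-binding rod of the complex, and its 4 probe sets all gave lower means in transgenic muscle, although 1 of them (1443315_at) was higher within the first round of hybridisation. The probe set with the most signal (1417307_at) gave 556, 699 and 683 on wild type replicates 1 to 3 and 579, 545 and 541 on the transgenic ones. Wild type replicate 1 lay among the transgenic arrays, so the groups overlapped. Means were 646 ± 78.2 (SD, n = 3) and 555 ± 20.7 (SD, n = 3), which is -0.21 on the log2 scale (95% interval -0.42 to 0.0087) at an adjusted p of 0.655. A second one of like signal (1448665_at) gave 597, 683 and 551 in wild type and 576, 604 and 442 in transgenic mice. Its log2 difference was -0.18 (-0.45 to 0.092), with transgenic replicate 3 the lowest array.

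The same array was also the lowest for the 2 remaining Dmd probe sets. On 1443315_at the signals were 166, 181 and 226 in wild type and 172, 195 and 148 on the transgenic arrays, a log2 difference of -0.14 (-0.46 to 0.18). It was 0.074 in the first round of hybridisation, 2 arrays against 2, and -0.56 in the second, 1 against 1, and without wild type replicate 3 it was -0.020. On the dimmest, 1430320_at, they were 36.8, 25.9 and 44.6 against 28.9, 26.1 and 6.87, a log2 difference of -0.54 with an interval of -1.22 to 0.13. Without transgenic replicate 3 the 4 log2 differences were -0.19, -0.043, -0.046 and -0.23, so the last 3 came much nearer to 0. As this array was the lowest on all 4, leaving it out could only raise the differences. The interval of 1417307_at reached from 0.746-fold to 1.01-fold.

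Utrophin, the autosomal relative of dystrophin that is found at the neuromuscular and myotendinous junctions of adult fibres, did not give one direction. Its brightest probe set (1452222_at) gave 319, 347 and 329 in wild type and 326, 339 and 301 on the transgenic arrays, a log2 difference of -0.041 (-0.25 to 0.17) with an adjusted p of 0.951. The groups overlapped, and with equal array medians the difference was 0.0092. On 1427569_a_at the signals were 65.1, 96.9 and 106 against 115, 112 and 90.4, a log2 difference of 0.22 (-0.17 to 0.62). Without wild type replicate 1, the lowest array, this was 0.046, and in the second round of hybridisation alone it was -0.20. The third, 1426892_at, lay below the filter, with 32.7, 18.9 and 30.8 in wild type and 3.51, 10.9 and 16.8 in transgenic muscle. Its groups did not overlap, but these signals are at the dim end of the array, and in the fit without a filter the log2 difference was -0.73 with an adjusted p of 0.686.

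Utrophin was also set against dystrophin within each array, since one can stand in for the other. The log2 value of the brightest Utrn probe set minus that of Dmd was -0.77, -0.98 and -1.02 on the wild type arrays and -0.80, -0.66 and -0.81 on the transgenic ones. Only the shift between genotypes can be read, since 2 probe sets do not share a scale. It was 0.17, with an exact two-sided permutation p of 0.30, where the smallest p that 20 regroupings allow is 0.10. Wild type replicate 1 fell among the transgenic arrays, and without it the shift was 0.24. That was the highest value with 1 array left out, and the lowest was 0.12. With the mean of all tested probe sets of each gene, which takes in the dimmest Dmd one, the shift was 0.36 at an exact permutation p of 0.10.

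Dystroglycan is the laminin receptor that dystrophin anchors. The 4 Dag1 probe sets split into a pair near 0 and a pair that was lower without overlap. The brightest, 1426778_at, gave 1895, 2314 and 2258 in wild type and 1964, 2133 and 2116 in transgenic muscle, means of 2156 ± 228 (SD, n = 3) and 2071 ± 93.0 (SD, n = 3). Its log2 difference was -0.053 with an interval of -0.23 to 0.13, and 0.00069 without wild type replicate 2. The 1426779_x_at probe set gave 624, 501 and 691 against 511, 590 and 660, with wild type arrays both highest and lowest. Its log2 difference was -0.039 (-0.31 to 0.24), and it turned positive with equal array medians (0.011), without wild type replicate 3 (0.060) and without transgenic replicate 1 (0.055).

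Lower on every transgenic array was 1423872_a_at, with 553, 555 and 571 in wild type and 489, 454 and 401 in transgenic muscle. The wild type mean was 560 ± 9.86 (SD, n = 3), and the transgenic mean was 448 ± 44.6 (SD, n = 3). This was 0.804-fold, or a log2 difference of -0.32 with an interval of -0.52 to -0.11, and the adjusted p of 0.384 in limma was the smallest of the 30. Over the 18 alternatives that allow a test it remained negative, from -0.38 to -0.23, and the adjusted p ran from 0.0575 to 0.685. The lowest adjusted p came from the fit with the fluidics module of each array as a random block. In that fit 297 probe sets passed in all, against 33 in the main one. Each module held arrays of only 1 genotype, so module and genotype cannot be told apart. In the second round of hybridisation, 1 array against 1 and so untested, the log2 difference of 1423872_a_at was -0.49. The same direction was seen for 1456131_x_at, at 451, 514 and 543 against 437, 428 and 418, a log2 difference of -0.22 (-0.43 to -0.017) with an adjusted p of 0.599, and -0.37 in the second round. The intervals of all 4 probe sets overlapped, and whether the pairs differ from each other was not tested. The part of the transcript that each one reads is not stated in the labels.

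**Figure D2:**
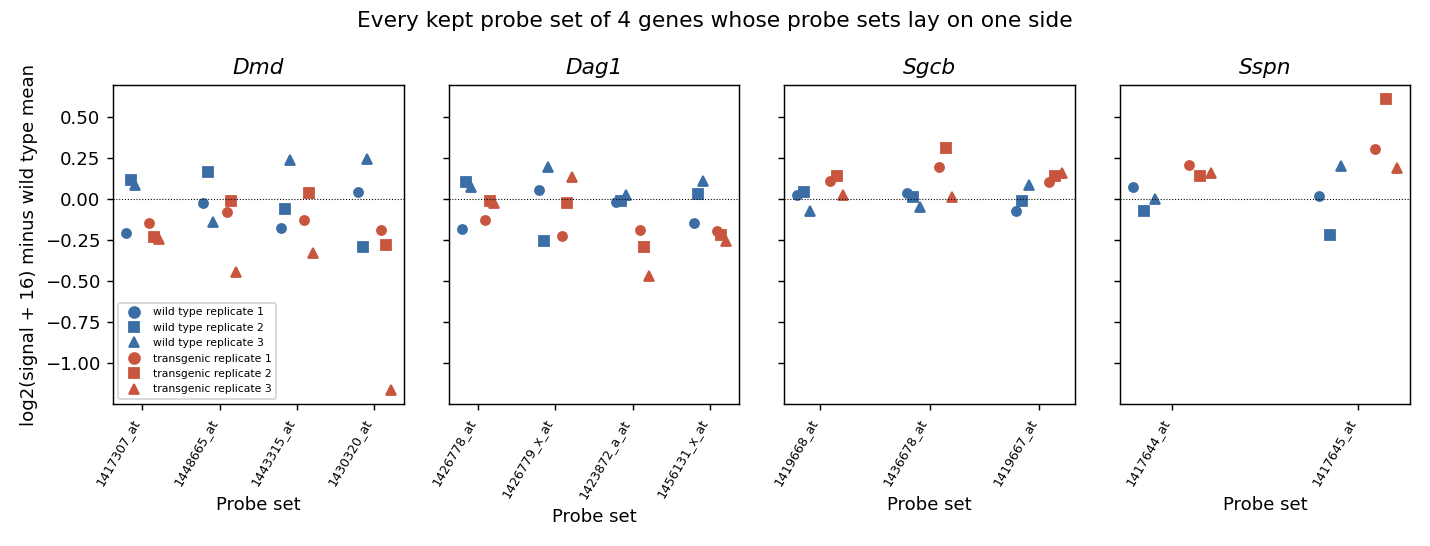
log2(signal + 16) of each array minus the wild type mean, for every tested probe set of the 4 genes that had more than 1 and all differences of one sign (Dmd and Dag1 lower, Sgcb and Sspn higher in transgenic muscle; Dag1 1426779_x_at changes sign with equal array medians or 1 array left out, Dag1 1426778_at without wild type replicate 2, Dmd 1443315_at in the first round and Sspn 1417645_at in the second). Dag1 1423872_a_at and 1456131_x_at, Sgcb 1419667_at and Sspn 1417644_at show no overlap between blue (wild type) and red (transgenic) arrays.

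Sarcoglycans are single-pass proteins that brace dystroglycan, and their transcripts gave no common direction. Alpha-sarcoglycan, the striated muscle form, was measured by 1 Sgca probe set at 1786, 1656 and 1920 in wild type and 1892, 1841 and 1754 in transgenic muscle. The log2 difference was 0.035 with an interval of -0.12 to 0.19, or 0.919-fold to 1.14-fold. Epsilon-sarcoglycan, its paralogue that is also made outside striated muscle, gave 325, 281 and 325 against 329, 312 and 335 on the tested Sgce probe set, a log2 difference of 0.067 (-0.15 to 0.29). Its dim probe set, 1443518_at, gave 27.5, 26.2 and 26.0 against 9.54, 28.5 and 13.6. Delta-sarcoglycan was measured at low signal by 1 Sgcd probe set, with 48.4, 43.7 and 63.3 against 53.1, 49.3 and 41.3, and its interval was wider, at -0.51 to 0.35 around -0.080.

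Beta-sarcoglycan, which pairs with delta-sarcoglycan in the core of the subcomplex, gave higher means on all 3 Sgcb probe sets. On 1419668_at the signals were 1599, 1625 and 1498 in wild type and 1699, 1736 and 1599 in transgenic muscle, means of 1574 ± 67.4 (SD, n = 3) and 1678 ± 70.9 (SD, n = 3). The log2 difference was 0.092 (-0.055 to 0.24). On 1436678_at they were 756, 743 and 711 against 845, 919 and 742, a log2 difference of 0.17 (-0.023 to 0.37) with an adjusted p of 0.686. Every transgenic array lay above every wild type array on 1419667_at, at 765, 786 and 795 against 675, 704 and 755, a log2 difference of 0.14 (-0.034 to 0.30) with an adjusted p of 0.719. All 3 remained positive in 18 of 18 alternatives with a test, where none passed, and in the second round.

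Sarcospan, the small four-span protein held by the sarcoglycans, gave the highest difference among the 30 tested probe sets. On 1417644_at the wild type signals were 1476, 1334 and 1404 and the transgenic ones 1623, 1552 and 1570. The groups did not overlap, and the means were 1405 ± 71.1 (SD, n = 3) and 1582 ± 36.9 (SD, n = 3). This was 1.13-fold, or 0.17 on the log2 scale (0.024 to 0.32), at an adjusted p of 0.564. A dimmer probe set, 1417645_at, gave 182, 152 and 209 against 226, 282 and 207, or 1.29-fold, with an interval of 1.04-fold to 1.61-fold and an adjusted p of 0.571. There transgenic replicate 3 lay below wild type replicate 3. Within the first round of hybridisation, 2 arrays against 2, the log2 difference of this probe set was 0.56, and in the second, 1 against 1, it was -0.013, while 1417644_at gave 0.18 and 0.16.

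Sntb1 encodes a syntrophin, an adaptor that carries signalling proteins to dystrophin. Its 6 probe sets gave 3 positive and 3 negative differences, from -0.13 to 0.080. The brightest, 1436204_at, gave 239, 234 and 340 in wild type and 288, 281 and 241 on the transgenic arrays, a log2 difference of 0.010 (-0.30 to 0.32). Wild type replicate 3 was far above the other 2 of its group, and leaving out any 1 of 4 arrays changed the sign. On 1436203_a_at the signals were 228, 194 and 208 against 204, 235 and 158, a log2 difference of -0.085 (-0.40 to 0.23). On 1438288_x_at they were 107, 57.1 and 93.1 against 64.4, 125 and 86.4, or 0.080 (-0.44 to 0.60), and on 1435987_x_at 69.7, 83.6 and 70.9 against 74.9, 74.5 and 53.5, or -0.13 (-0.51 to 0.26). The genotypes overlapped on each of these. The dimmest ones, 1451938_a_at and 1421455_at, varied more within wild type (108, 32.1 and 54.9, and 40.8, 8.04 and 50.9) than between genotypes. Little can be read from them, as their intervals reached 0.62 and 0.81.

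Alpha-dystrobrevin, the dystrophin-related partner of the syntrophins, was measured by 7 probe sets, of which 6 were tested and 5 of these gave negative differences. On the brightest, 1419223_a_at, the signals were 662, 667 and 762 in wild type and 749, 685 and 630 on the transgenic arrays, a log2 difference of -0.019 (-0.22 to 0.18) that became 0.032 with equal array medians. The lowest of the tested Dtna differences was -0.17 (-0.38 to 0.045), on 1426066_a_at, at 495, 430 and 439 against 406, 432 and 371. Both 1425292_at, at 787, 612 and 622 against 665, 598 and 634, and 1456069_at, at 243, 258 and 235 against 232, 243 and 194, also gave lower means in transgenic muscle. Their log2 differences were -0.081 (-0.31 to 0.15) and -0.13 (-0.38 to 0.12). On 1429768_at the arrays spread from 126 to 192 within wild type and from 129 to 182 within transgenic muscle, around a difference of -0.097 (-0.47 to 0.27). The only positive one was 0.15 (-0.14 to 0.45), on 1427588_a_at, where transgenic replicate 3 was the highest array at 218. The genotypes overlapped on all 6. The dim 1453625_at gave 19.3, 17.5 and 14.1 against 0.183, 6.21 and 16.1.

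**Figure D3:**
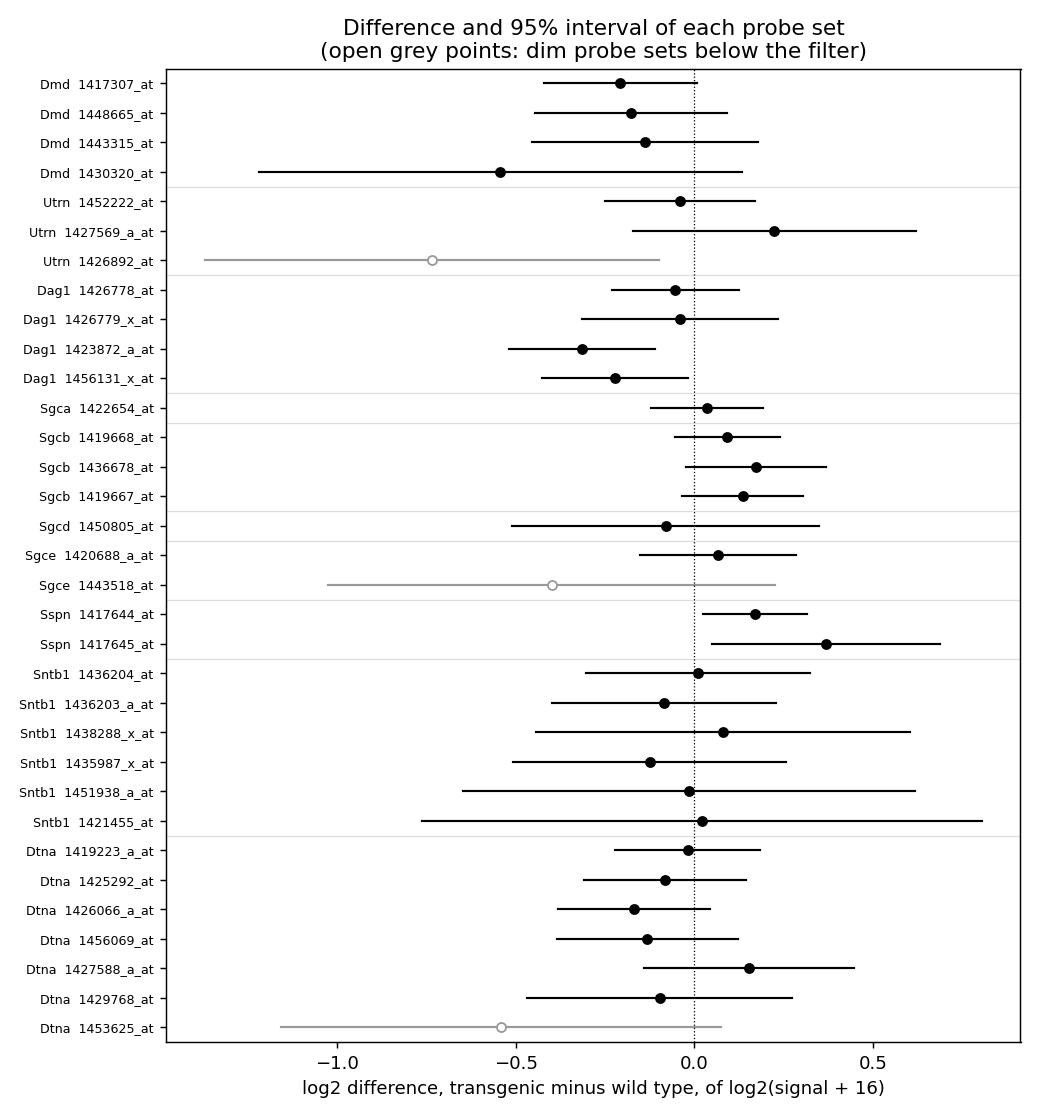
log2 difference (transgenic minus wild type, of log2(signal + 16)) of all 33 probe sets with 95% intervals, grouped by gene, where filled points are the 30 tested and open grey points the 3 dim ones from the fit without a filter. Intervals of 4 tested probe sets exclude 0 (2 of Dag1 below, 2 of Sspn above), and none of them passed after adjustment.

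The intervals show how large a change these arrays could have missed. For 24 of the 30 tested probe sets the whole 95% interval lay within a 1.5-fold change in either direction, and for 29 within a 2-fold change. The exception to the latter was the dimmest Dmd probe set. These folds are on the log2(signal + 16) scale, which understates changes of dim transcripts. For dim probe sets the change in the signal itself could therefore be larger than these bounds. The median half-width was 0.26 on the log2 scale, against 0.37 over all probe sets tested.

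Transgenic replicate 3 was the array that most often gave the lowest value, for 13 of the 30 tested probe sets, followed by wild type replicate 2 with 9. Per array, the median deviation of the 30 from their own mean was -0.016, -0.056 and 0.063 in wild type and 0.015, 0.055 and -0.094 in transgenic muscle, while over all tested probe sets it stayed between -0.0041 and 0.017. Transgenic replicate 3 also had the highest 3′ to 5′ ratio of beta-actin, 0.959, and of Gapdh, 0.809. For Gapdh, wild type replicate 1 was close, at 0.807. The part of RNA quality in the low values of transgenic replicate 3 was not tested. By the gap between hybridisation times, wild type replicate 3 and transgenic replicate 3 made up the second round and the other 4 arrays the first. In the first round 16 of the 30 differences were positive and 14 negative, with a median of 0.040. In the second, which holds 1 array of each genotype and so has no test, 8 were positive and 22 negative, with a median of -0.22. In 18 of 30 probe sets the 2 rounds gave the same sign. Without transgenic replicate 3, 15 were positive and 15 negative.

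**Figure D4:**
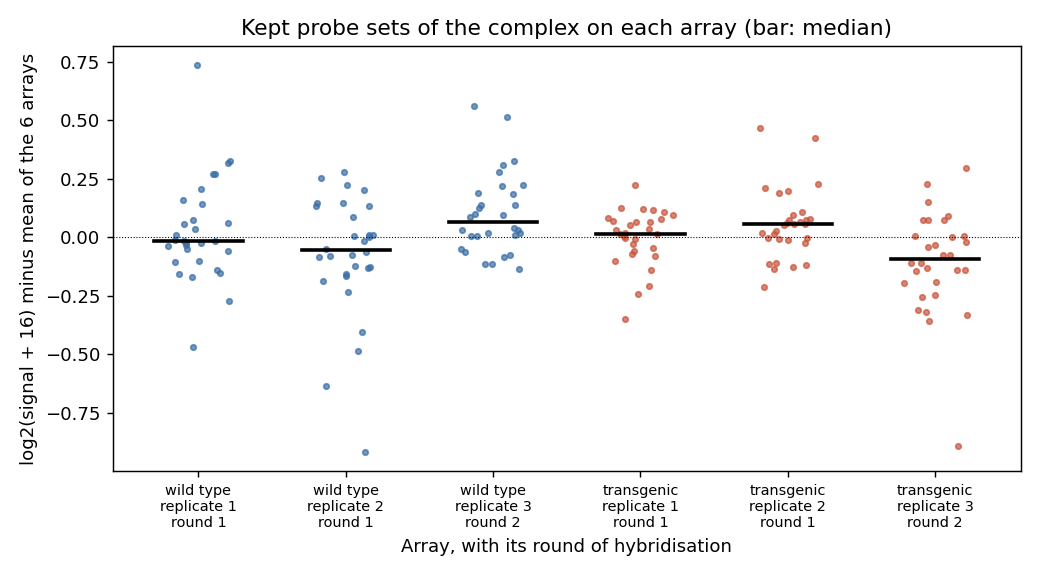
Each point is 1 of the 30 tested probe sets of the complex on 1 array, as log2(signal + 16) minus the mean of the 6 arrays, and the bar is the median. The medians run from -0.094 on transgenic replicate 3 to 0.063 on wild type replicate 3, the 2 arrays of the second round.

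Other proteins of the same complex gave no call either. Tested were 6 further genes of the complex, with 2 positive and 4 negative differences, a median of -0.041 and 0 called. The beta2-syntrophin gene Sntb2 gave 98.4, 74.3 and 57.2 in wild type and 97.1, 140 and 84.0 on the transgenic arrays, a log2 difference of 0.41 (-0.053 to 0.87). The caveolin of muscle, Cav3, gave -0.048 (-0.21 to 0.11), and Sntg2, a gamma-syntrophin, -0.18 (-0.80 to 0.44).

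Enzymes that build the laminin-binding sugar of alpha-dystroglycan were measured by 13 of 18 listed genes, with 6 positive and 7 negative differences, a median of -0.0055 and 0 called. The kinase Pomk, which phosphorylates its mannose, gave 119, 106 and 108 against 110, 152 and 180, a log2 difference of 0.34 (-0.026 to 0.71) with an adjusted p of 0.672. Dpm3, a dolichol-phosphate mannose synthase subunit, gave -0.48 (-1.24 to 0.28) at low signal, and Pomgnt2, an N-acetylglucosaminyltransferase, -0.15 (-0.40 to 0.090).

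Extracellular ligands gave 5 positive and 2 negative differences among 7 genes, with a median of 0.067 and 0 called. Perlecan, Hspg2, gave 217, 160 and 225 in wild type and 142, 110 and 178 on the transgenic arrays, a log2 difference of -0.45 (-0.84 to -0.068) with an adjusted p of 0.561. Its groups overlapped through wild type replicate 2 and transgenic replicate 3. Lama2, the laminin chain of the fibre's basement membrane, gave 0.10 (-0.11 to 0.31), and Lama5 0.12 (-0.21 to 0.44). Proteins that bind dystrophin or its partners inside the fibre gave 8 positive and 6 negative differences among 14 genes, with a median of 0.016 and 0 called. Syne1, a nesprin of the nuclear envelope, gave 344, 406 and 303 against 257, 280 and 271 without overlap, a log2 difference of -0.36 (-0.61 to -0.10) with an adjusted p of 0.448. The plakin Plec, which ties the complex to intermediate filaments, gave 0.14 (-0.025 to 0.31), and the keratin Krt8 0.26 (-0.21 to 0.73).

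Promoters of the 4 genes with more than 1 tested probe set, all on one side, are shown to see what letters they share. RefSeq sequence of build GRCm38.p6 was matched by symbol with 1 chromosome left out, and windows of 7 of the 10 genes were taken. Each line gives the 250 bases before an annotated start, on the gene's strand. Where a gene had several starts, the one printed was chosen by hand. Capitals mark the E-box CANNTG, the GC box GGGCGG, the N-box CCGGAA, the TATA box TATAAA, and the CArG and MEF2 motifs, on both strands.
Dmd, chrX:82948620-82948869, plus strand: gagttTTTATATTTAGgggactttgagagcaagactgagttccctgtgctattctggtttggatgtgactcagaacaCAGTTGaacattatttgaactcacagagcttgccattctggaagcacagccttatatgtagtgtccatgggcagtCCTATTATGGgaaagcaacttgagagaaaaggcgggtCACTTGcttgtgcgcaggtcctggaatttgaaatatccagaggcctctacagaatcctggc
Dag1, chr9:108263816-108264065, minus strand: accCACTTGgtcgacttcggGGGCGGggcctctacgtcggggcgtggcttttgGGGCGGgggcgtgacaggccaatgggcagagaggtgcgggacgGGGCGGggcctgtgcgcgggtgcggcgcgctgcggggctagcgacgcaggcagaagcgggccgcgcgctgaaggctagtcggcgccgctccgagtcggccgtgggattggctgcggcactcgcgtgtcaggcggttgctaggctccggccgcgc
Sgcb, chr5:73647738-73647987, minus strand: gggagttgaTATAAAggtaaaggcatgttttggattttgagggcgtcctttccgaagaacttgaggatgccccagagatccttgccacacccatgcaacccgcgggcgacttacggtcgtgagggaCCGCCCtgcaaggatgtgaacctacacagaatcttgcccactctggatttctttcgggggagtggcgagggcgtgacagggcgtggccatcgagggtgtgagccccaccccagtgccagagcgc
Sspn, chr6:145933872-145934121, plus strand: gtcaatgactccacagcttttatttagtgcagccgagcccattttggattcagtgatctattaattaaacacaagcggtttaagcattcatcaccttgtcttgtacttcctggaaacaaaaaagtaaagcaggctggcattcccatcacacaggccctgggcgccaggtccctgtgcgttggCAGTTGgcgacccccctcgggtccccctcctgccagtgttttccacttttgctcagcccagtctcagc
The Dmd window held 2 E-boxes, the site type of myogenic factors such as MyoD, 1 CArG box, the site type of serum response factor, and 1 MEF2 motif that overlaps a TATA box. The window of another Dmd start, not printed, held 3 GC boxes and no other of these motifs. What the windows share thus depends on the start chosen. Among all 32851 windows of this length, 66.2% held an E-box, 1.47% a CArG box, 2.92% a MEF2 motif and 12.4% a TATA box. Dag1 held 3 GC boxes and 1 E-box in a window of 74.8% G and C, where the median of all windows was 52.4% and 32.7% held a GC box. Sgcb held 1 GC box and 1 TATA box, and Sspn 1 E-box. No motif was in both the Sgcb and the Sspn window, and no N-box, found in 12% of all windows, was in any of the 4. A match of letters is a description and does not show that a factor binds.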

How the data were processed

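Each of 6 Affymetrix Mouse430_2 arrays carried the pooled RNA of 6 mice. Per the submitters' processing notes, the authors used GCOS 1.1.1, and the deposited table holds linear intensities. The sources used here do not name the algorithm. Trimming 2% from both ends left a mean of 150.0 on every array, so each had been scaled. The deposited run information (other content, no expression) gave the hybridisation time and the fluidics module of each array, with 4 modules in all. Each module held arrays of only 1 genotype, so module and genotype cannot be told apart. The 2 rounds of hybridisation were set here from a gap between these times.

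Intensities were analysed as log2(signal + 16), which understates changes of dim transcripts. Probe sets with a mean above the 40th percentile were tested in limma 3.58.1 (R 4.3.3) with an intensity trend, no covariates and Benjamini-Hochberg adjustment over all 27022, at 0.05. The fit was tested on simulated data. Pools are separate replicates per the labels, and p-values measure the spread between pools. The number of arrays limits precision.

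All probe sets of the 10 genes are named, and per list the 3 genes of smallest p. Genes and lists were chosen with earlier results of these data known. Names came from the platform annotation, updated through a RefSeq table of GRCm38.p6. Some genes of the complex are not reported here.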

Additional observations from a re-analysis of the deposited data

How the results depend on the processing

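Of the 30 tested probe sets of the complex, 0 passed in any of the 18 alternatives that allow a test, and 15 kept their sign in all of these. The second round of hybridisation, 1 array against 1, has no test, and with it 13 kept their sign. Same-numbered arrays shared deviations with r of only 0.0030 to 0.060, and not every array correlated best with its own number, so the numbers were not taken as pairs. With the replicate block, 0 of 30 passed, the smallest adjusted p was 0.346 and 36 probe sets passed in all. Over all genes 33 probe sets passed, 50 with equal array medians, 17 with no filter, 1 without the intensity trend and 18 to 39 with 1 array left out. With the module as a random block 297 passed. Each module held only 1 genotype, and the correlation within modules in this fit was negative, at -0.44. The cause of these changes in count was not tested. The 4 probe sets at an unadjusted p under 0.05 became 1 without the trend, 8 with the module block, 1 when wild type replicate 2 was left out, and 2 when wild type replicate 3, transgenic replicate 1 or transgenic replicate 2 was. The median of the members' log2 differences, -0.040, was 0.040 in round 1 and -0.22 in round 2.

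Log2 differences that changed sign, all uncalled, were these. With quantile normalization Sntb1 1451938_a_at gave 0.010. Equal array medians gave 0.0092 for Utrn 1452222_at, 0.011 for Dag1 1426779_x_at, 0.036 for Sntb1 1451938_a_at and 0.032 for Dtna 1419223_a_at. An offset of 1 gave 0.016 for Sntb1 1451938_a_at, and one of 64 gave -0.023 for Sntb1 1421455_at. Array weights gave 0.00073 for Sntb1 1451938_a_at and 0.011 for Dtna 1419223_a_at. The module block gave -0.030, -0.068 and -0.095 for Sntb1 1436204_at, 1438288_x_at and 1421455_at. Round 1 gave 0.074 for Dmd 1443315_at, 0.11 for Sgcd 1450805_at, 0.055 for Sntb1 1436203_a_at and 0.11 for Dtna 1419223_a_at. Round 2 turned 8 signs, with -0.20 for Utrn 1427569_a_at, -0.13 for Sgca 1422654_at, -0.013 for Sspn 1417645_at and 0.028 for Dtna 1425292_at. For Sntb1 it gave -0.47 (1436204_at), -0.091 (1438288_x_at), -0.33 (1421455_at) and 0.15 (1451938_a_at). With 1 array left out the ranges were -0.14 to 0.00069 for Dag1 1426778_at, -0.17 to 0.060 for Dag1 1426779_x_at, -0.081 to 0.045 for Dtna 1419223_a_at, -0.14 to 0.033 for Dtna 1425292_at and -0.26 to 0.019 for Dtna 1429768_at. They were -0.019 to 0.087 for Sgca 1422654_at, -0.17 to 0.038 for Sgcd 1450805_at and -0.078 to 0.0041 for Utrn 1452222_at. For Sntb1 they were -0.43 to 0.31 (1421455_at), -0.19 to 0.0028 (1435987_x_at), -0.21 to 0.060 (1436203_a_at), -0.079 to 0.18 (1436204_at), -0.14 to 0.27 (1438288_x_at) and -0.34 to 0.35 (1451938_a_at).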

Other observations

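The genes whose arrays most resembled those of Dmd and Utrn are given as a description. Among 12941 other genes, each by its brightest tested probe set, Pearson's r with Dmd 1417307_at over the 6 arrays was highest for Otud6b, a deubiquitinase, at 0.989, the kinase Dyrk2 at 0.989 and the junction protein F11r at 0.987. For Utrn 1452222_at it was highest for Mrpl33, a mitochondrial ribosomal protein, at 0.995, Lztr1 at 0.995 and Pnrc2 at 0.994. An r above 0.95 was reached by 26 genes for Dmd and 49 for Utrn, and all points share the same 6 arrays and their scaling.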
